A study of Homo sapiens with 12 samples.

Results

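The regulators of G-protein signalling, or RGS genes, were followed in human pancreatic ductal adenocarcinoma lines and in derivatives of them with resistance to cisplatin, a platinum drug that crosslinks DNA. The 10 genes RGS2, RGS3, RGS4, RGS5, RGS10, RGS12, RGS14, RGS16, RGS19 and RGS20 were taken by name out of 18417 genes measured, and they are 10 of the 21 genes of the family with a probe set of their own. Each was read from a probe set that carries its symbol alone, chosen by the highest mean level over the 12 arrays. Every one of the 10 had just 1 such probe set, so that mean left no choice to make. The genes were proposed with earlier results of these arrays known, so the number of them that passed a test supports nothing about the family.

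The arrays fall into 4 groups of 3. AsPC1-R and BxPC3-R are the resistant derivatives, AsPC1 and BxPC3 the parental lines, and all 4 are labelled as pancreatic ductal adenocarcinoma lines. AsPC1-R was maintained with 1.67 µM and BxPC3-R with 0.60 µM cisplatin, and the passage before harvest was free of drug in both. All 4 were grown in the same serum-containing medium and are described as subconfluent. Each line has 1 derivative, so what goes with resistance and what goes with that one derived culture cannot be told apart. The labels do not state that the arrays of a group come from separate cultures, so the p-values below measure the spread between these samples only, which may be technical.

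RGS proteins end G-protein signals. A receptor that has bound its ligand loads the alpha subunit of a G protein with GTP, and the RGS domain speeds the breakdown of that GTP, which brings the alpha and the beta-gamma subunits back together. RGS2, RGS3, RGS4, RGS5 and RGS16 belong to the R4 subfamily, which acts on alpha subunits of the Gi and Gq classes. RGS10, RGS12 and RGS14 form the R12 subfamily, and RGS19 and RGS20 belong to the RZ subfamily, which acts on the Gi class and its member G alpha z.

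Levels are log2 values, on which 1 unit is a doubling of the signal. SMAD4 and CDKN2A, both deleted in BxPC3, read 9.90 and 7.44 in AsPC1, against 4.70 and 6.22 in BxPC3, lower where they are deleted. They read 4.63 and 5.75 in BxPC3-R. CDKN2A was thereby called lower in BxPC3-R than in BxPC3, at -0.47 (adjusted p 0.0249, limma), so a call can arise at the level of a deleted gene. Background was not measured, and it differs between probe sets, so changes within such low levels are uncertain in size. The 3 arrays of a group limit the precision. BxPC3 replicate 2 stood apart. The 50 genes that most exceeded BxPC3-R in AsPC1 were picked, and for 50 of them replicate 2 gave the highest BxPC3 level, at a median of 0.83 above the other BxPC3 arrays. Calls of the 10 genes that rest on the BxPC3 arrays are therefore given without it as well. The cells carried ductal markers, with a mean level of 6 of them (KRT19, KRT7, KRT8, KRT18, EPCAM, CDH1) from 10.9 to 11.0 on the AsPC1-R arrays, 11.0 to 11.3 in AsPC1, 11.4 to 11.5 in BxPC3-R and 11.0 to 11.1 in BxPC3. KRT7 was the exception, at 7.19 in AsPC1-R and 7.02 in AsPC1, against 11.61 in BxPC3-R and 11.15 in BxPC3. Of the 6, KRT7, KRT8 and KRT18 were called higher in BxPC3-R, at 0.46, 1.12 and 0.78. In AsPC1-R, KRT18 and CDH1 were called lower, at -0.51 and -0.46. Some markers of other cell types were also called as changed in a derivative. The endothelial gene CDH5 read 6.67 in BxPC3-R, against 9.34 in BxPC3 (-2.67), and PECAM1 6.04 in BxPC3-R, against 7.28 in BxPC3 (-1.24), with 0.66 in AsPC1-R, while VWF and KDR read 5.04 to 5.28 there without a call. The fibroblast gene LUM stood at 10.51 in AsPC1-R, against 11.55 in AsPC1 (-1.03), and at 6.45 in BxPC3-R, against 4.91 in BxPC3 (1.53). PDGFRA was higher in BxPC3-R by 1.21, while COL1A1, COL1A2 and DCN had no call in either derivative. The macrophage gene CD68 changed by 0.72 in AsPC1-R and -0.72 in BxPC3-R. The leukocyte gene CD3E was called lower in BxPC3-R, at 5.44 against 5.91 in BxPC3 (-0.47), while PTPRC read 3.19 to 3.27 in all groups without a call. Of the acinar genes PRSS1, CPA1 and CELA3A, only CELA3A was called in a derivative, at -0.35 in AsPC1-R. The part of other cell types in the RGS levels was not tested. RNA came from whole cultures, so fewer expressing cells and less RNA per cell cannot be told apart.

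RGS4 and RGS2 lie on chromosome 1 with RGS5 and RGS16, and RGS4 and RGS2 had the largest changes of the 10 genes in BxPC3-R. Their promoter sequences are shown with that of RGS16, an R4 gene of the same chromosome that passed no test. The windows are the 250 bases before an annotated start in RefSeq (GRCh38.p14), written in the direction of transcription. Capitals mark TATAAA (the TATA box), CCAAT or its complement ATTGG (the CCAAT box), and TGACG or its complement CGTCA (the core of the cAMP response element), searched on both strands.
RGS4, 1 of its 4 annotated windows, chr1:163069111-163069360, plus strand: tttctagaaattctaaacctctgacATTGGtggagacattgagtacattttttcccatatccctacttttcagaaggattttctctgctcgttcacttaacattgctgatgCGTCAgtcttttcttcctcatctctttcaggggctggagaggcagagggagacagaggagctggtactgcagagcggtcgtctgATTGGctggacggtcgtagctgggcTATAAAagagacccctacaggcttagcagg
RGS2, its only window, chr1:192808789-192809038, plus strand: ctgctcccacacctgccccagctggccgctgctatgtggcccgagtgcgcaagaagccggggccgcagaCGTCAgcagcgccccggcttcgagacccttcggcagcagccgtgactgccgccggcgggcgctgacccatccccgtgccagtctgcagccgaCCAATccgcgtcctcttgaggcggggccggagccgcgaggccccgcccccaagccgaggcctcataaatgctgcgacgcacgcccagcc
RGS16, its only window, chr1:182604390-182604639, minus strand: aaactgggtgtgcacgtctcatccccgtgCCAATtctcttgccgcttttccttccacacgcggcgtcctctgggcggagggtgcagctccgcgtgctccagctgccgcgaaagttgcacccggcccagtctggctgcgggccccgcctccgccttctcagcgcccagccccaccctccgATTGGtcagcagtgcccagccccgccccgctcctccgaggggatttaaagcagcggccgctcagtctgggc

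The RGS4 window holds TATAAA 30 bases before the start, ATTGG at 55 and 225, and CGTCA at 139. It was chosen for display because it holds TATAAA, so that match was fixed by the choice. Of the 4 RGS4 windows, 1 holds TATAAA, 2 the CCAAT box and 2 the TGACG core. No motif overlaps another in the 3 windows shown. RGS2 has CCAAT at 89 and CGTCA at 181, and its window has no TATAAA. RGS16 has CCAAT or its complement at 221 and 71 and none of the other motifs. Among 35116 promoter windows of the same length, 10.7% hold TATAAA, 32% the CCAAT box and 21.2% the TGACG core, on either strand. Another RGS4 window overlaps the one shown and holds the CCAAT box and the TGACG core that lie farthest from its start. Of the windows of the other genes, RGS5 holds a CCAAT box in 1 of 2, RGS3 each motif in 1 of 5 and RGS12 the TGACG core in 1 of 5. Those of RGS10, RGS14 and RGS19 hold none of the 3 motifs, and the promoter of RGS20 was not analysed here. A match describes these letters and is not shown to be a site in use.

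**Figure D1:**
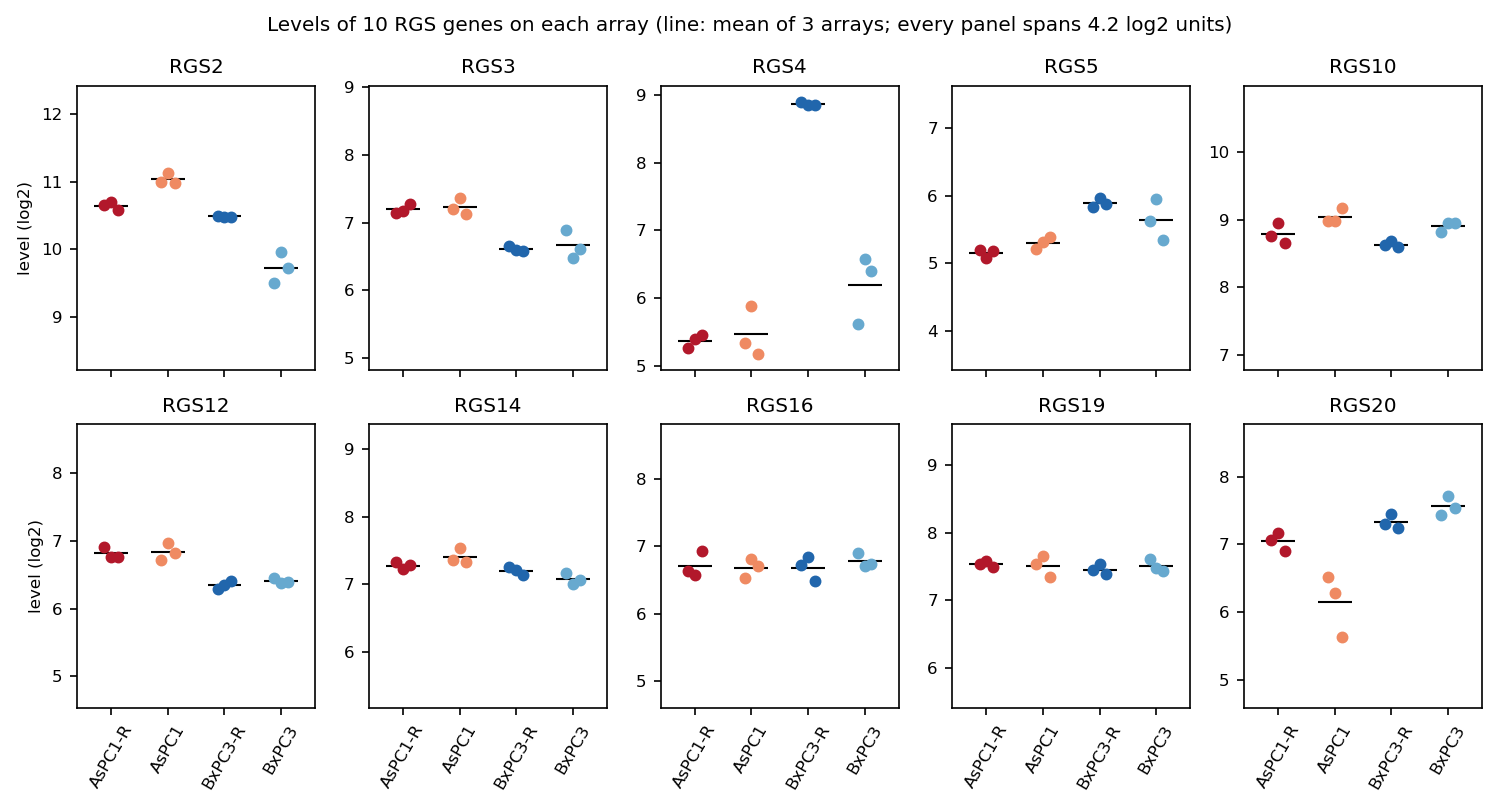
Level (log2, vertical axis) of each of the 10 RGS genes on each of the 12 arrays, with a point per array and a line at the mean of 3, and with every panel spanning the same range. RGS4 lay between 8.85 and 8.91 on the BxPC3-R arrays and between 5.17 and 6.58 on the arrays of the other groups, while RGS16 and RGS19 overlapped across all groups.

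The first comparison asked what differs between AsPC1-R and its parent. RGS20 was higher and RGS2 lower in AsPC1-R, and the other 8 genes did not pass the test. A gene is called changed where its p from limma, adjusted by Benjamini-Hochberg over the 18417 genes, is under 0.05. Of all genes 20.3% were called in this comparison, 11.6% higher and 8.64% lower, so 2 of 10 is close to the share among all genes. The second comparison set BxPC3-R against BxPC3. RGS4 and RGS2 were higher there and none of the 10 was lower. Again 2 of 10 genes were called, beside 20.8% of all genes, 9.75% higher and 11.0% lower.

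RGS4, which acts on Gi and Gq alpha subunits, carried the widest range. It read 8.91, 8.85 and 8.85 in BxPC3-R, against 5.62, 6.58 and 6.39 in BxPC3, and the groups did not overlap. The change was 2.67 (SE 0.21), or 6.38-fold between the measured levels, with an adjusted p of 9.53e-07. The BxPC3 level lies near the 6.22 that the deleted CDKN2A read there, so the size of this change is uncertain. Without BxPC3 replicate 2, where the parental level was highest, it was 2.87 (adjusted p 1.48e-06, limma). The AsPC1-R arrays read 5.27, 5.39 and 5.46, against 5.33, 5.88 and 5.17 in AsPC1, and these groups overlapped (log2 change -0.09, SE 0.21, adjusted p 0.808). Levels on the arrays of the AsPC1 pair lie in the range that the deleted genes gave, so whether RGS4 is transcribed there cannot be read from these values. The means were 8.87 ± 0.03 in BxPC3-R and 6.20 ± 0.51 in BxPC3, and 5.37 ± 0.10 in AsPC1-R and 5.46 ± 0.37 in AsPC1 (mean ± SD, n = 3). From high to low the order was BxPC3-R, BxPC3, AsPC1 and AsPC1-R, and all neighbours after BxPC3-R overlapped.

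Another 2 probe sets list RGS4 together with ZNF320 and RPS27, a gene of the ribosome. Their group means lay between 12.48 and 12.93 for one and between 11.92 and 12.42 for the other. They were not used because they do not belong to RGS4 alone.

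RGS2, which prefers G alpha q, moved in opposite directions in the derivatives. It read 10.66, 10.70 and 10.58 in AsPC1-R, against 10.99, 11.12 and 10.98 in AsPC1. Every AsPC1-R array lay below every AsPC1 array, by a log2 change of -0.39 (SE 0.10, adjusted p 0.0145), which is 1.31-fold lower. The fall no longer passed with AsPC1 replicate 2 left out (-0.34, adjusted p 0.0516, limma) or with AsPC1-R replicate 3 left out (-0.35, adjusted p 0.0565). In BxPC3-R it read 10.49, 10.48 and 10.48, against 9.51, 9.95 and 9.73 in BxPC3. Here every derivative array lay above every parental one, by 0.76 (SE 0.10, adjusted p 1.03e-04), which is 1.69-fold. Without BxPC3 replicate 2 the rise was 0.87 (adjusted p 3.53e-05). The groups ran in the order AsPC1, AsPC1-R, BxPC3-R and BxPC3 from high to low, with no overlap between neighbours.

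RGS5, RGS3 and RGS16 are the other R4 genes among the 10. RGS5, a marker of pericytes in tissue, read 5.19, 5.08 and 5.18 in AsPC1-R, against 5.22, 5.31 and 5.39 in AsPC1. These arrays did not overlap, but the change of -0.15 (SE 0.12) did not pass the test (adjusted p 0.415). In BxPC3-R it read 5.84, 5.96 and 5.88, against 5.62, 5.95 and 5.35 in BxPC3, and the groups overlapped. The difference was 0.25 (SE 0.12, adjusted p 0.177). It passed without BxPC3 replicate 2, at 0.41 (adjusted p 0.0134, limma). The pericyte genes PDGFRB and CSPG4 read 5.77 and 5.44 in AsPC1-R, 5.96 and 5.45 in AsPC1, 5.78 and 5.50 in BxPC3-R, and 5.60 and 5.38 in BxPC3. Over 6 pericyte and smooth muscle markers (PDGFRB, CSPG4, ACTA2, DES, MCAM, NOTCH3) the mean level on an array was 6.64 to 6.70 in AsPC1-R, 6.59 to 6.74 in AsPC1, 6.45 to 6.64 in BxPC3-R and 6.71 to 6.84 in BxPC3. Of the 6, only the smooth muscle actin gene ACTA2 was called in a derivative, at 0.63 in AsPC1-R and -1.41 in BxPC3-R (adjusted p 2.37e-04 and 1.35e-07, limma). The part of such cells in the RGS5 level was not tested.

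RGS3, which also exists in long forms with further domains, read 7.15, 7.18 and 7.28 in AsPC1-R, against 7.20, 7.36 and 7.12 in AsPC1. In BxPC3-R it read 6.65, 6.60 and 6.57, against 6.89, 6.48 and 6.62 in BxPC3. Each derivative overlapped its parent, while both AsPC1 groups lay above both BxPC3 groups. RGS16, like RGS4 and RGS5 a protein removed through its amino end, read 6.63, 6.57 and 6.93 in AsPC1-R, against 6.53, 6.81 and 6.71 in AsPC1. In BxPC3-R it read 6.72, 6.84 and 6.49, against 6.90, 6.71 and 6.74 in BxPC3. All 4 groups overlapped, and their means differed by at most 0.10.

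In the R12 subfamily no gene was called in a derivative. RGS10, a small protein that consists of little more than the RGS domain, came closest. It read 8.76, 8.95 and 8.65 in AsPC1-R, against 8.98, 8.98 and 9.17 in AsPC1, a difference of -0.26 (SE 0.09, adjusted p 0.0683). In BxPC3-R it read 8.63, 8.68 and 8.59, against 8.81, 8.95 and 8.96 in BxPC3, a difference of -0.27 (SE 0.09, adjusted p 0.0548). All derivative arrays lay below all parental arrays in both lines, by 1.20-fold and 1.21-fold. The share of all genes whose arrays separate in this way was not counted, so separation alone sets none of the RGS genes apart. The 95% intervals were -0.46 to -0.06 and -0.47 to -0.07, before any adjustment for the number of genes. RGS10 passed in AsPC1-R without AsPC1-R replicate 2 (-0.34, adjusted p 0.0266, limma). It passed in BxPC3-R without AsPC1 replicate 3, AsPC1-R replicate 2 or AsPC1-R replicate 3, through the shared estimate of spread, with adjusted p of 0.0421, 0.0377 and 0.0491. Without BxPC3 replicate 2 the difference in BxPC3-R was -0.25 (adjusted p 0.145). Over all alternatives the adjusted p of RGS10 reached 0.230 in AsPC1-R and 0.164 in BxPC3-R.

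RGS12 and RGS14 both carry domains that bind Ras proteins and a GoLoco motif that holds Gi alpha subunits in their GDP form. RGS14 read 7.32, 7.22 and 7.28 in AsPC1-R, against 7.36, 7.53 and 7.33 in AsPC1, with no overlap and a difference of -0.13 (SE 0.08, adjusted p 0.307). It read 7.26, 7.20 and 7.13 in BxPC3-R, against 7.17, 7.01 and 7.06 in BxPC3, which overlapped (0.12, SE 0.08, adjusted p 0.387). RGS12 read 6.92, 6.77 and 6.76 in AsPC1-R, against 6.72, 6.97 and 6.82 in AsPC1. Its BxPC3-R arrays read 6.28, 6.36 and 6.41, against 6.46, 6.37 and 6.39 in BxPC3, and both derivatives overlapped their parents.

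The RZ genes differed from each other. RGS20, which is known for its action on G alpha z, read 7.07, 7.17 and 6.90 in AsPC1-R, against 6.51, 6.28 and 5.64 in AsPC1. All AsPC1-R arrays were higher, by 0.90 (SE 0.17, adjusted p 0.00182) or 1.87-fold, beside an SD of 0.45 between the parental arrays. The AsPC1 mean of 6.14 lies near the 6.22 that the deleted CDKN2A read in BxPC3. The sizes of this change and of the RGS20 difference between the parental lines are therefore uncertain. The call held at each array left out and each other setting tried, with changes from 0.65 to 1.09 and adjusted p up to 0.0113. In BxPC3-R it read 7.30, 7.45 and 7.25, against 7.44, 7.72 and 7.54 in BxPC3, and the groups overlapped (log2 change -0.24, SE 0.17, adjusted p 0.410). RGS19, the other RZ gene, read 7.54, 7.58 and 7.50 in AsPC1-R, against 7.53, 7.66 and 7.35 in AsPC1. It read 7.45, 7.54 and 7.38 in BxPC3-R, against 7.61, 7.48 and 7.43 in BxPC3. Its 4 group means spanned 0.08 and all groups overlapped.

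For RGS3, RGS12, RGS16 and RGS19 the changes in the derivatives lay between -0.10 and 0.03, with adjusted p of 0.655 or more. Their 95% intervals reached from -0.36 to 0.28, so smaller changes than these bounds could have been missed.

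A further comparison asked whether the change in AsPC1-R differs from the change in BxPC3-R. It differed for RGS2, RGS4 and RGS20. The change in AsPC1-R less that in BxPC3-R was -2.76 for RGS4 (SE 0.30, adjusted p 1.26e-05), -1.14 for RGS2 (SE 0.14, adjusted p 4.49e-05) and 1.14 for RGS20 (SE 0.24, adjusted p 0.00316). Without BxPC3 replicate 2 these were -2.96, -1.25 and 1.06, with adjusted p of 9.38e-06, 1.21e-05 and 0.00950 (limma). Of all genes 25.4% differed in this way, 14.1% with a positive and 11.3% with a negative difference. The positive share of these calls was 55.4%, and 44.4% with arrays centred on their medians. For RGS5 the difference was -0.41 (SE 0.17, adjusted p 0.101), and it passed without BxPC3 replicate 2, at -0.56 (adjusted p 0.00913). For RGS10, which was lower in both derivatives without passing the test, it was 0.01 (SE 0.13) with a 95% interval from -0.27 to 0.30.

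**Figure D2:**
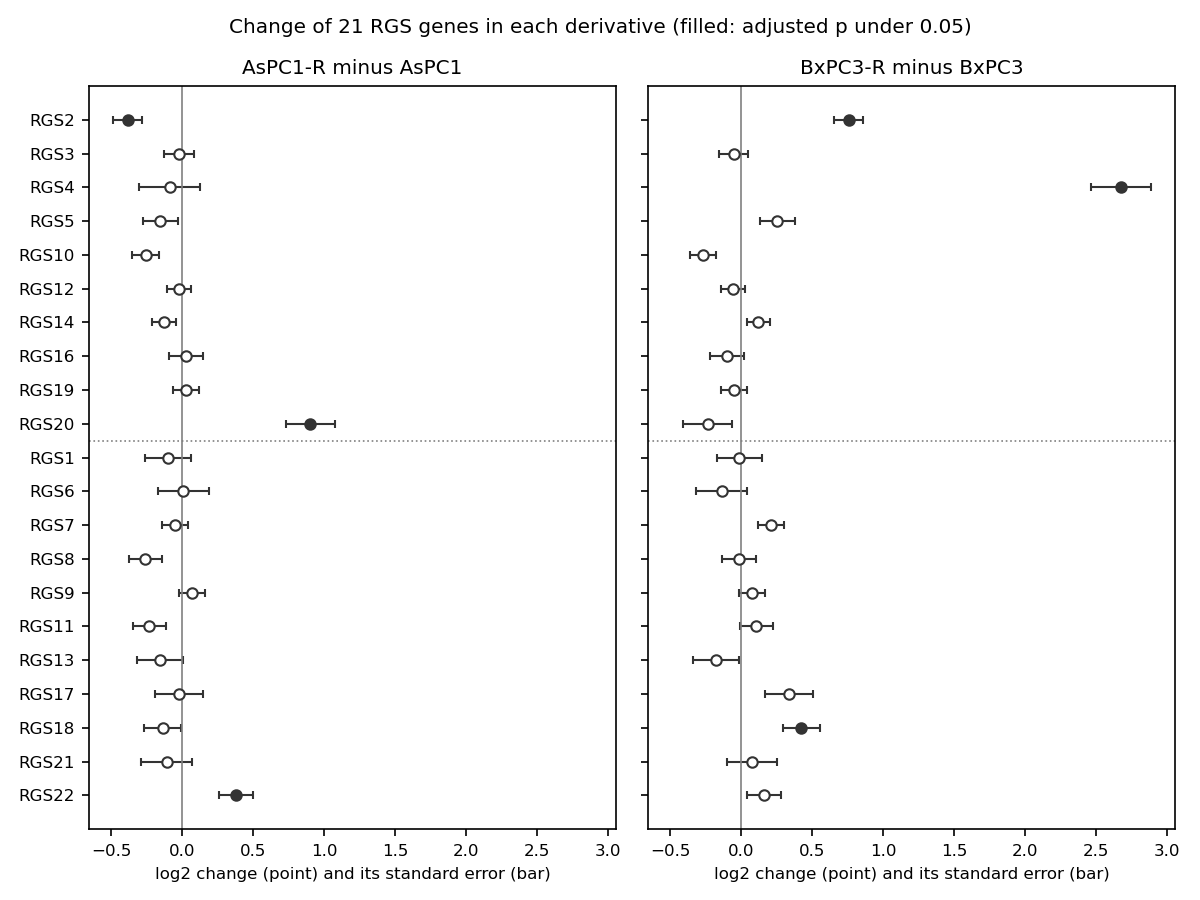
Log2 change (horizontal axis) of 21 RGS genes in AsPC1-R against AsPC1 (left) and in BxPC3-R against BxPC3 (right), with the standard error as a bar and filled points at an adjusted p under 0.05. The 10 genes described are above the dotted line. RGS4 stands at 2.67 in BxPC3-R and -0.09 in AsPC1-R, RGS20 at 0.90 in AsPC1-R, and RGS2 is on opposite sides of 0.

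The parental lines differed in more of these genes than either derivative did from its parent. RGS2, RGS3, RGS12 and RGS14 were higher and RGS4, RGS5 and RGS20 lower in AsPC1 than in BxPC3. That is 7 of 10 genes, where 50.6% of all genes were called, 27.7% higher and 22.9% lower in AsPC1, with a median over all genes of 0.11. The widest differences were those of RGS20 at -1.42 (SE 0.17, adjusted p 9.09e-06) and RGS2 at 1.30 (SE 0.10, adjusted p 8.76e-08). RGS3 stood at 0.57, RGS12 at 0.43 and RGS14 at 0.33, with SEs of 0.10, 0.09 and 0.08 and adjusted p of 4.40e-04, 8.22e-04 and 0.00508. Without BxPC3 replicate 2 the differences were -1.35 for RGS20, 1.42 for RGS2, 0.48 for RGS3, 0.41 for RGS12 and 0.29 for RGS14, with adjusted p up to 0.0241. The AsPC1 and BxPC3 arrays did not overlap for RGS2, RGS3, RGS12, RGS14 and RGS20, nor for RGS10, whose difference of 0.14 did not pass the test (adjusted p 0.223). How many of all genes separate between these lines was not counted. RGS4 stood at -0.74 (SE 0.21, adjusted p 0.0108), at levels where 1 array decides. Without BxPC3 replicate 2 it was -0.54 (adjusted p 0.0579, limma). RGS5 stood at -0.33 (SE 0.12, adjusted p 0.0353), and it no longer passed when AsPC1 replicate 1 (adjusted p 0.107), AsPC1 replicate 2 (0.0681), BxPC3 replicate 1 (0.0600) or BxPC3 replicate 2 (-0.18, adjusted p 0.179) was left out. The groups of both RGS4 and RGS5 overlapped between the lines. RGS16 and RGS19 stood at -0.10 and 0.01 (adjusted p 0.495 and 0.936).

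RGS20 and RGS2, with the widest parental differences, stood nearer to the other parental line in a derivative. RGS20 was lower in AsPC1 than in BxPC3, at 6.14 ± 0.45 and 7.57 ± 0.14, and read 7.05 ± 0.13 in AsPC1-R. RGS2 was higher in AsPC1 than in BxPC3, at 11.03 ± 0.08 and 9.73 ± 0.22, and read 10.65 ± 0.06 in AsPC1-R and 10.48 ± 0.01 in BxPC3-R (mean ± SD, n = 3). These changes and the parental difference share the parental arrays, so their opposite signs are not independent.

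The other 11 RGS genes with a probe set of their own moved little. Their group means lay between 3.37 and 7.05, and their changes between -0.26 and 0.38 in AsPC1-R and between -0.18 and 0.42 in BxPC3-R. RGS22 was called in AsPC1-R, at 3.96 in AsPC1-R and 3.58 in AsPC1 (log2 change 0.38, SE 0.12, adjusted p 0.0360). It no longer passed when AsPC1 replicate 3 (adjusted p 0.111, limma), AsPC1-R replicate 1 (0.151) or AsPC1-R replicate 2 (0.109) was left out. RGS18 was called in BxPC3-R, at 3.99 in BxPC3-R and 3.56 in BxPC3 (0.42, SE 0.13, adjusted p 0.0330). That call was lost without any 1 of the BxPC3 arrays (adjusted p 0.0743, 0.0876 and 0.0706) and without BxPC3-R replicate 1 (0.108) or 3 (0.0989). Both levels are low. RGS17, the RZ gene outside the 10, read 7.05 in BxPC3-R and 6.72 in BxPC3, and 6.07 in AsPC1-R and 6.10 in AsPC1, with no call in either derivative (adjusted p 0.211 and 0.938).

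Measured genes next to RGS4, RGS2 and RGS20 on their chromosomes were read in the same fit, taking 3 on each side. Beside RGS4, CCDC190 rose in BxPC3-R by 1.36 (SE 0.24, adjusted p 9.64e-04), and by 1.30 without BxPC3 replicate 2 (adjusted p 0.00519). RGS5, on the other side of RGS4, and UAP1, DDR2, NUF2 and LMX1A did not pass the test there, at 0.25, -0.13, 0.02, 0.03 and -0.04. In AsPC1-R, NUF2, a kinetochore gene, fell by 0.87 (adjusted p 1.56e-05) and UAP1 by 0.40 (0.00504). DDR2 stood at -0.35 (0.0399), a call lost without 1 of 7 arrays, namely AsPC1 replicate 1 or 2, any AsPC1-R array, or BxPC3-R replicate 2 or 3 (adjusted p up to 0.151, limma).

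Of the neighbours of RGS2, which include the RGS genes RGS1, RGS13 and RGS21, none but GLRX2, a glutaredoxin of mitochondria, was called. GLRX2 changed in the same directions as RGS2, at -0.29 in AsPC1-R (adjusted p 0.0391) and 0.44 in BxPC3-R (0.00351). The call in AsPC1-R was lost without 1 of 7 arrays, namely AsPC1 replicate 1 or 3, AsPC1-R replicate 1 or 3, BxPC3 replicate 3, or BxPC3-R replicate 1 or 2 (adjusted p up to 0.137, limma). On chromosome 8, RGS20 stood between ATP6V1H and TCEA1. In AsPC1-R the proton pump gene ATP6V1H rose by 0.30 (adjusted p 0.0208), the thioesterase gene LYPLA1 by 0.38 (0.00935) and the mitochondrial ribosome gene MRPL15 by 0.43 (0.0180). TCEA1 at 0.20 (0.0875), NPBWR1 at -0.15 (0.445) and OPRK1 at -0.14 (0.451) did not pass. ATP6V1H no longer passed without AsPC1 replicate 1 (0.0722), AsPC1-R replicate 1 (0.0694) or AsPC1-R replicate 3 (0.0552), nor MRPL15 without AsPC1 replicate 2 (0.0731) or AsPC1-R replicate 2 (0.0783). In BxPC3-R, ATP6V1H fell by 0.38 (0.00434) and the other neighbours of RGS20 were not called, at -0.10 to 0.10.

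**Figure D3:**
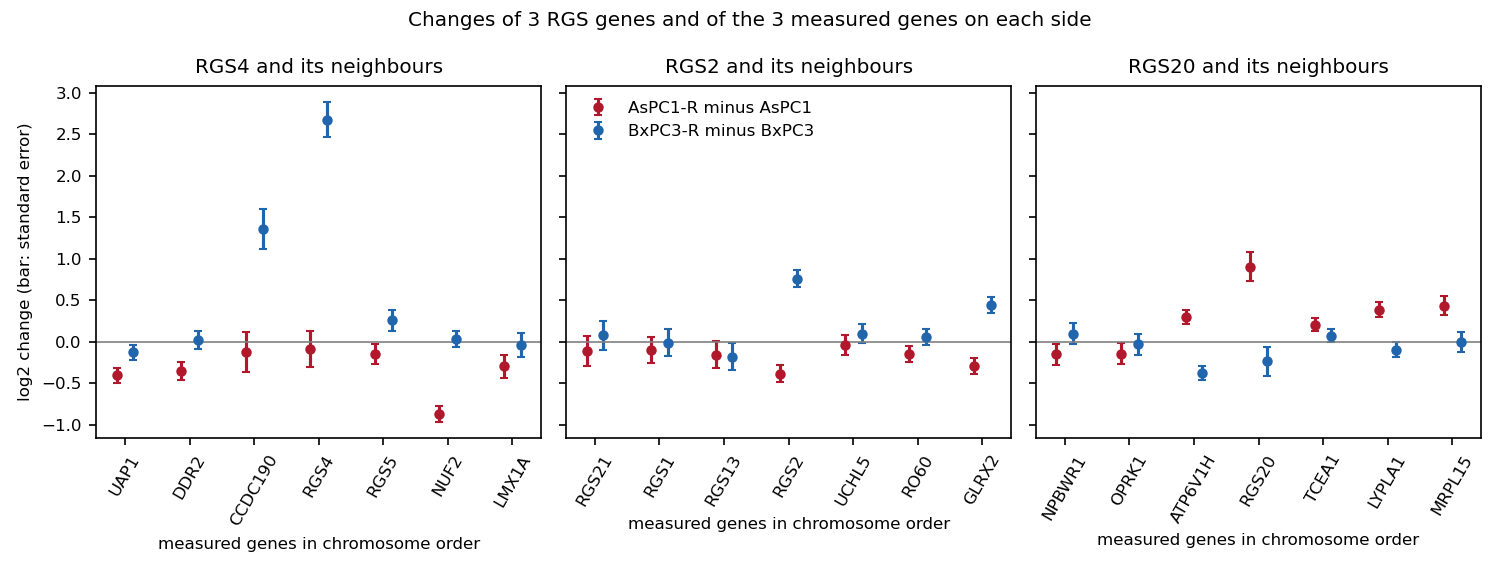
Log2 change (vertical axis, bar for the standard error) of RGS4, RGS2 and RGS20 and of the 3 measured genes on each side in chromosome order, in AsPC1-R against AsPC1 and in BxPC3-R against BxPC3. CCDC190 at 1.36 stands beside RGS4 at 2.67 in BxPC3-R, while RGS5 on its other side is at 0.25.

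The genes with the pattern most like these 3 over the 12 arrays were found by the smallest root mean square difference between values centred on each gene's own mean. For RGS2 they were MPHOSPH9 (0.106), WASHC4 (0.117) and LYAR (0.121). MPHOSPH9 read 10.39 in AsPC1-R, 10.81 in AsPC1, 10.14 in BxPC3-R and 9.51 in BxPC3. For RGS4 they were LUZP2 (0.319), the protocadherin gene PCDH20 (0.365) and the Ras-related gene RERG (0.396), at a larger distance. PCDH20 read 5.64 in AsPC1-R, 5.56 in AsPC1, 9.47 in BxPC3-R and 7.12 in BxPC3. For RGS20 they were BTC, which encodes a ligand of the EGF receptor (0.179), CAVIN1 of caveolae (0.180) and the histone gene H2BC12 (0.211).

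Genes around RGS proteins in the pathway were described by lists that were drawn up with earlier results known. Over all genes the median change was -0.05 in AsPC1-R and 0.02 in BxPC3-R. As a background for the counts below, 11.6% of all genes were called higher and 8.64% lower in AsPC1-R. In BxPC3-R these shares were 9.75% and 11.0%. Of the pathway changes given by gene name below for BxPC3-R, all but that of ADO also passed without BxPC3 replicate 2. GNB4, a beta subunit gene not described further, was called in BxPC3-R at -0.38 (adjusted p 0.0366, limma). It lost that call without BxPC3 replicate 2 (-0.29, adjusted p 0.154). The calls of GNAQ, PLCB4 and LPAR3 in BxPC3-R were each lost without some other single array. The counts of a list rest on single arrays in part, and their range with 1 array left out is given where it reached over 1.5 times. Of 25 receptors for lipid, nucleotide, peptide and protease signals, 2 rose and 2 fell in AsPC1-R (median -0.05), and 1 rose and 5 fell in BxPC3-R (median 0.05). With 1 array left out, 1 to 4 fell in AsPC1-R and 0 to 1 rose in BxPC3-R. LPAR1, a receptor for lysophosphatidic acid that couples to Gi, Gq and G12 classes, read 8.48, 8.29 and 8.30 in AsPC1-R, against 5.19, 5.29 and 5.36 in AsPC1. It rose by 3.08 (SE 0.09, adjusted p 2.08e-11) and was already at 9.85 in BxPC3-R and 9.77 in BxPC3. The thrombin receptor gene F2R rose by 0.53 in AsPC1-R (SE 0.10, adjusted p 0.00132). In BxPC3-R the sphingosine 1-phosphate receptor gene S1PR1 fell by 0.73 (SE 0.08, adjusted p 1.66e-05), at a low level of 5.04 against 5.78 in BxPC3, and the bradykinin receptor gene BDKRB1 fell by 0.55 (SE 0.12, adjusted p 0.00535).

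Of 15 alpha subunit genes, which include the substrates of RGS proteins, 2 rose and 2 fell in each derivative (medians 0.05 in AsPC1-R and -0.02 in BxPC3-R). These counts were 1 to 2 each in BxPC3-R with 1 array left out. GNAL, of the Gs class that most RGS proteins do not act on, read 9.12, 8.94 and 9.37 in AsPC1-R, against 7.79, 7.66 and 7.47 in AsPC1. It rose by 1.50 in AsPC1-R (SE 0.11, adjusted p 3.07e-07) and fell by 0.55 in BxPC3-R (SE 0.11, adjusted p 0.00237). GNA14 of the Gq class rose by 1.02 in AsPC1-R, to 6.36 against 5.34 in AsPC1 (SE 0.11, adjusted p 1.90e-05). These levels lie around the 6.22 that the deleted CDKN2A read in BxPC3, so the size of this change is uncertain. GNAI1 of the Gi class fell by 0.69 in AsPC1-R (SE 0.09, adjusted p 8.01e-05). The Gi-class gene GNAT2, known from cone photoreceptors, rose by 0.62 in BxPC3-R (SE 0.11, adjusted p 0.00122). Among 16 beta and gamma subunit genes, 2 rose and 1 fell in AsPC1-R (median -0.06), and 1 rose and 1 fell in BxPC3-R (median 0.04). Leaving out 1 array, 0 to 1 fell in AsPC1-R, and 1 to 2 rose and 0 to 1 fell in BxPC3-R. GNG11 rose by 1.84 in AsPC1-R, to 7.10 against 5.26 in AsPC1 (SE 0.15, adjusted p 9.90e-07). GNB5, the beta subunit that pairs with the R7 class of RGS proteins, rose by 0.40 in AsPC1-R (SE 0.09, adjusted p 0.00480), and GNG5 rose by 0.58 in BxPC3-R (SE 0.11, adjusted p 0.00166).

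Another 16 genes encode an RGS-like domain outside the family, among them the receptor kinases of the GRK family. Of these, 2 rose and 4 fell in AsPC1-R (median -0.10), and 0 rose and 2 fell in BxPC3-R (median -0.01). In BxPC3-R, 0 to 1 rose and 2 to 4 fell with 1 array left out. GRK3, a kinase that marks active receptors for arrestin, read 8.47, 8.36 and 8.28 in AsPC1-R, against 6.44, 6.52 and 6.48 in AsPC1. It read 5.22, 5.42 and 5.82 in BxPC3-R, against 6.29, 6.41 and 6.67 in BxPC3. The groups did not overlap in either pair, with a change of 1.89 in AsPC1-R and -0.97 in BxPC3-R (SE 0.13 each, adjusted p 2.36e-07 and 1.37e-04). GRK5 fell by 0.64 (SE 0.09, adjusted p 9.44e-05) and ARHGEF11 by 0.39 (SE 0.09, adjusted p 0.00932) in AsPC1-R. AKAP10, an anchor of protein kinase A, rose by 0.38 in AsPC1-R and fell by 0.31 in BxPC3-R (adjusted p 0.00172 and 0.00756).

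Of 13 genes for phospholipase C beta and adenylyl cyclase, the effectors of Gq and of Gs and Gi, 1 rose and 3 fell in AsPC1-R (median -0.12), and 0 rose and 2 fell in BxPC3-R (median -0.03). Those that fell in BxPC3-R were 1 to 2 with 1 array left out. The cyclase gene ADCY6 fell in both derivatives, by 0.62 in AsPC1-R and 0.51 in BxPC3-R (SE 0.10 each, adjusted p 5.45e-04 and 0.00237). In AsPC1-R, PLCB1 rose by 0.52 and PLCB3 fell by 0.52 (SE 0.09 and 0.08, adjusted p 0.00117 and 3.62e-04).

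Of 10 genes for partners and chaperones, which bind alpha subunits or anchor RGS proteins, 1 rose and 2 fell in AsPC1-R (median -0.16), and 1 rose and 1 fell in BxPC3-R (median 0.06). With 1 array left out, 0 to 1 rose in AsPC1-R. RIC8B, a chaperone of Gs-class alpha subunits, read 7.85, 7.75 and 7.82 in AsPC1-R, against 8.10, 8.45 and 8.29 in AsPC1. It fell by 0.47 in AsPC1-R and rose by 0.85 in BxPC3-R (SE 0.09 each, adjusted p 0.00245 and 1.95e-05). GPSM2, a GoLoco protein of the spindle, fell by 0.78 in AsPC1-R (SE 0.08, adjusted p 5.84e-06). RGS7BP, the membrane anchor of R7 proteins, fell by 0.78 in BxPC3-R (SE 0.15, adjusted p 0.00182).

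The proteins RGS4, RGS5 and RGS16 are removed by the N-degron pathway, in which the starting methionine is taken off, the exposed cysteine is oxidised and arginine is added, and a ubiquitin ligase then binds. Of 6 genes of these steps, 1 rose and 3 fell in AsPC1-R (median -0.28), and 2 rose and 0 fell in BxPC3-R (median 0.20). With 1 array left out, 2 to 4 fell in AsPC1-R, and 1 to 2 rose and 0 to 1 fell in BxPC3-R. ADO, which encodes a cysteine oxidase, stood at 0.34 in BxPC3-R (adjusted p 0.0428) and no longer passed without AsPC1-R replicate 1 or 2, any BxPC3 array, or BxPC3-R replicate 2 or 3 (adjusted p up to 0.184, limma). ATE1, which adds arginine, stood at -0.36 in AsPC1-R (adjusted p 0.0186) and lost its call when AsPC1 replicate 2 (0.0666) or replicate 2 of AsPC1-R (0.0836) was left out. METAP2, which removes methionine, rose by 0.58 in BxPC3-R (SE 0.09, adjusted p 3.41e-04) and read 11.57 in AsPC1-R, against 11.93 in AsPC1. That difference of -0.36 (adjusted p 0.0115) lost its call without AsPC1-R replicate 3 (-0.29, adjusted p 0.0581, limma). The ligase gene UBR1 rose by 0.41 in AsPC1-R (SE 0.09, adjusted p 0.00372). The arrays measure RNA, so the amounts of the RGS proteins were not measured.

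**Figure D4:**
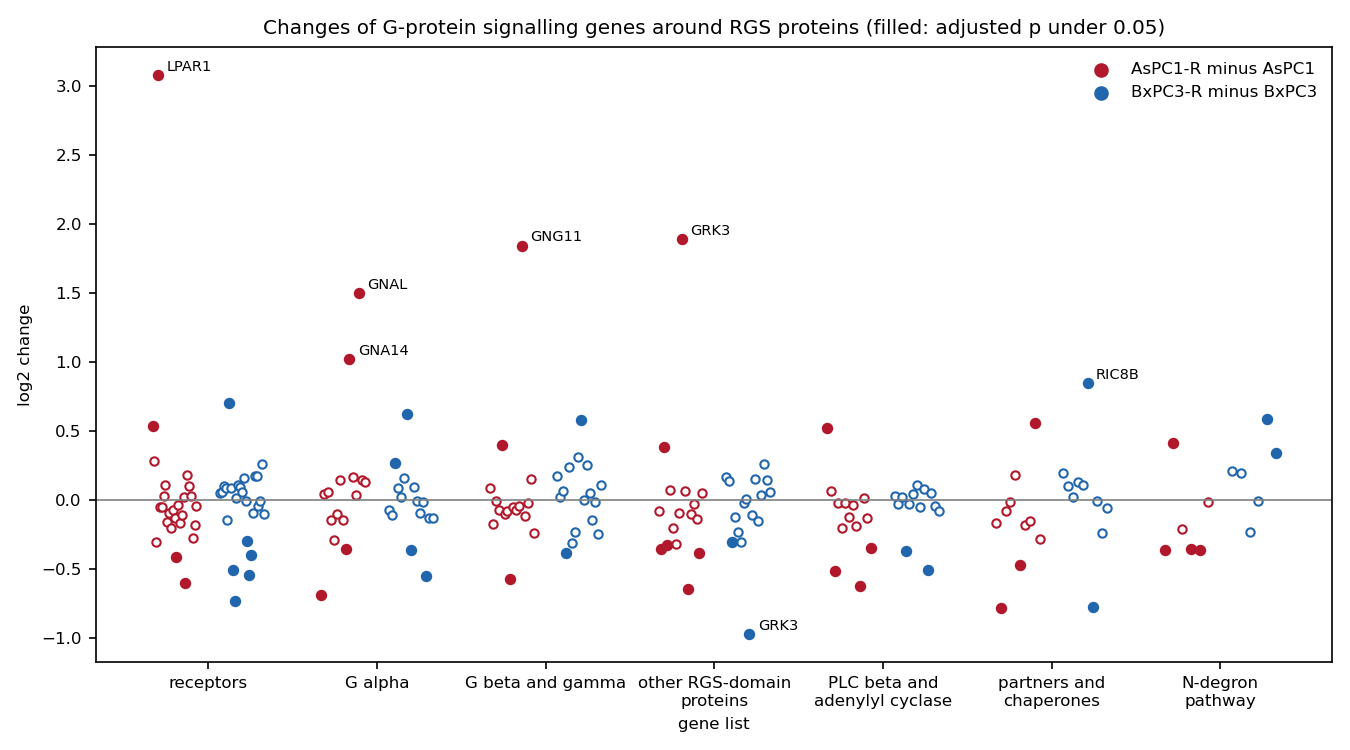
Log2 change (vertical axis) of each gene in 7 lists of the pathway, with AsPC1-R against AsPC1 left of BxPC3-R against BxPC3 in each list and filled points at an adjusted p under 0.05. LPAR1 at 3.08, GRK3 at 1.89, GNG11 at 1.84 and GNAL at 1.50 stand highest in AsPC1-R, and RIC8B at 0.85 stands highest in BxPC3-R.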

How the data were processed

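Total RNA of 12 samples was amplified, labelled and hybridised to Affymetrix arrays, per the labels' protocols. The deposited values are log2 levels per probe set, made by the authors with RMA in Affymetrix Expression Console, per the submitters' processing notes. The sources used here give neither versions nor a genome build. Array medians of 6.48 to 6.65 hold no measure of depth. Of 33297 probe sets, 19460 carry 1 gene symbol, 1754 several and 12083 are not listed in the probe table. The probe set with the highest mean over 12 arrays stood for a gene, which gave 18417 genes, none filtered out. Neighbours and chromosomes came from RefSeq (GRCh38.p14), where 18389 genes matched.

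Changes were tested with limma 3.58.1 (R 4.3.3), lmFit and eBayes on 12 arrays and 4 group means (8 residual and 5.47 prior degrees of freedom), two-sided, with Benjamini-Hochberg adjustment over 18417 genes, and the pipeline was tested on simulated data. The members and lists were chosen with earlier results of these data known. Named genes were the 10 members, the other RGS genes, up to 3 called genes per list and derivative with the largest change, the 3 genes most like each member that spans at least 1 log2 unit, and SMAD4 and CDKN2A; of these the text names some. Alternatives left out each array, or dim genes, or the groups outside a comparison. Others took replicate number as a block, repeated quantile normalization, centred each array on its median, ran eBayes with a trend and robustly, or averaged a gene's probe sets.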

Additional observations from a re-analysis of the deposited data

Results flagged for a closer look

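For these genes the change in AsPC1-R against AsPC1 differed from the change in BxPC3-R against BxPC3 by the test of the difference itself (limma, adjusted p under 0.05 over 18417 genes). Each value is the first change less the second, in log2 units. Only the RGS genes and the pathway genes named for a large called change in a derivative were looked at, so the lists below are not complete. In full, 5 of 15 alpha subunit genes, 6 of 25 receptor genes, 6 of 16 genes with an RGS-like domain and 3 of 6 N-degron genes differed. Over all genes the share was 25.4%. Among the RGS genes it was -2.76 for RGS4, -1.14 for RGS2, 1.14 for RGS20 and -0.56 for RGS18. RGS18 has low levels, and its difference lost the call with any single array left out other than AsPC1 replicate 1, AsPC1-R replicate 3 or BxPC3-R replicate 2 (adjusted p up to 0.0953, limma).

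Among alpha subunit genes it was 2.05 for GNAL, 1.03 for GNA14, -0.62 for GNAI1 and -0.48 for GNAT2. The GNAT2 difference lost the call with any single array left out other than AsPC1 replicate 1, BxPC3-R replicate 1 or BxPC3-R replicate 2 (adjusted p up to 0.0906, limma), and with quantile normalization once more (0.0579). Among gamma subunit genes it was 1.79 for GNG11, -0.88 for GNG4 and -0.63 for GNG5. The receptor genes gave 2.99 for LPAR1, 0.48 for F2R (its call is lost with quantile normalization once more, adjusted p 0.0935, limma) and 0.57 for S1PR1, and the effector genes 0.49 for PLCB1 and -0.54 for PLCB3. Other genes with an RGS-like domain gave 2.86 for GRK3, -0.80 for GRK5, -0.53 for ARHGEF11 and 0.69 for AKAP10. Partners gave -1.32 for RIC8B, -0.88 for GPSM2 and 0.80 for GPR158, and N-degron genes -0.94 for METAP2 and -0.58 for ATE1. RGS2, GRK3, GNAL, RIC8B, METAP2 and AKAP10 were called in opposite directions in the derivatives. The calls of RGS2 and METAP2 in AsPC1-R were each lost with some single array left out.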

How the results depend on the processing

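The number of RGS genes called among the 10 ranged, with single arrays left out, from 1 to 3 in AsPC1-R (2 with all arrays), from 2 to 3 in BxPC3-R (2), from 3 to 4 for the difference between the lines (3) and from 5 to 7 between the parental lines (7). Under the other settings these counts were 2 to 3, 2 to 3, 3 to 4 and 6 to 8. Of the genes tested, 15.6% to 23.1%, 16.1% to 22.7%, 21.5% to 28.8% and 42% to 53.7% were called with single arrays left out. Under the other settings these shares were 14.9% to 31.7%, 19.9% to 31.9%, 24.6% to 38.9% and 42% to 63.9%. The highest of each came with dim genes left out, where 12328 genes were tested. RGS10 was gained in both derivatives with dim genes left out (adjusted p 0.0402 in AsPC1-R and 0.0315 in BxPC3-R). It was gained in AsPC1-R with quantile normalization once more (0.0145), and in BxPC3-R with trend and robust (0.0398) or only the groups compared (0.0333). Quantile normalization once more also gained RGS14 for the difference between the lines (-0.32, 0.0400) and RGS10 between the parental lines (0.24, 0.0263). RGS5 lost its parental call with only the groups compared (0.0941), and it was not tested with dim genes left out. For F2R (0.38, 0.0935) and GNAT2 (-0.48, 0.0579) the calls of the difference between the lines ended with quantile normalization repeated. The cause of these shifts was not tested. No called change turned its direction. Of 37 changes of pathway genes that the rule named, 27 kept their call whichever array was left out.

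RGS4 and RGS2 in BxPC3-R and RGS20 in AsPC1-R kept their calls in all 19 alternatives. Not all of these could change the genes. Averaging probe sets left their values as they were, since each has 1 probe set of its own. Leaving out an array of the other line left their changes as they were and acted only through the shared estimate of spread. The replicate block left the counts at 2, 2, 3 and 7, and ended the calls of ADO in BxPC3-R (adjusted p 0.0575) and of the RGS18 difference between the lines (0.0505). For same-numbered arrays, correlations of their deviations ran from -0.239 to 0.34, with 3 of 18 over 0.1. Differently numbered arrays were not compared, so these values cannot settle whether the numbers pair the samples. The main fit did not take them to do so. Precision is limited by 3 arrays per group and by unmeasured background. Among the RGS genes, background matters most for RGS4 in BxPC3 and the AsPC1 groups, for RGS20 in AsPC1, for RGS5, and for RGS18 and RGS22. Pathway genes with large changes also had low levels, so the sizes of those changes are uncertain. LPAR1, GNG11 and GNA14 read 5.28, 5.26 and 5.34 in AsPC1, and GRK3 read 5.49 in BxPC3-R. With arrays centred on their medians, 56.7% of calls in BxPC3-R were higher, against 46.9% as deposited.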
